A study of Mus musculus with 18 samples.

Results

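The question addressed here is whether irradiation changed the lung of C57BL6/J mice differently from the lungs of A/J and C3H/HeJ mice. The effect of irradiation in a strain was taken as the mean log2 level of its 3 irradiated arrays minus the mean of its 3 untreated arrays. The C57BL6/J effect minus the mean of the A/J and C3H/HeJ effects is called the difference of effects. A positive value means that the C57BL6/J effect was the higher one, and a negative value that it was the lower one. All 18 arrays of the series entered, and 12412 genes were tested. A gene was called where limma's Benjamini-Hochberg adjusted p was below 0.05.

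The irradiated mice received 18 Gy to the whole thorax at 8 weeks of age from a caesium source, with the rest of the body behind lead, and were killed when moribund. The irradiated C57BL6/J mice were 28 to 30 weeks old, 20 to 22 weeks after exposure. The irradiated A/J mice were 30 to 32 weeks old, 22 to 24 weeks after exposure, and the irradiated C3H/HeJ mice were 20 to 22 weeks old, 12 to 14 weeks after exposure. The untreated mice of each strain were 15 to 26 weeks old. Total RNA of the right lung was hybridised to 1-colour oligonucleotide arrays, 3 arrays in each of 6 groups. The irradiated samples came from separate mice; the labels do not say whether the untreated samples of a strain did, so the p-values measure the spread between these samples, which may in part be technical. Moribund state, time since exposure and, in C57BL6/J and A/J, older age cannot be told apart from irradiation. Time since exposure also cannot be told apart from strain, since the C3H/HeJ mice were killed earlier.

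Thoracic irradiation injures the lung over months. In mice the late disease depends on the inbred strain: C57BL/6 mice are known for fibrosis, the laying down of collagen scar, whereas A/J and C3H mice are known for alveolitis, an inflammation of the air spaces, often with many mast cells. Histology was not used here, so the disease of each mouse is background and not a measurement. In RNA from whole lung, fewer cells of a type and less RNA per cell cannot be told apart.

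The lung labels fit the markers: on every array the type 2 cell gene Sftpc lay between 12.78 and 13.01, the club cell gene Scgb1a1 between 13.01 and 13.19 and the type 1 cell gene Ager between 12.69 and 12.94. All levels given are quantile-normalised log2 values. Several arrays stood apart. The mean level of 16 genes of squamous epithelium (skin- or oesophagus-type keratins and cornified envelope proteins) was 7.66 and 7.62 in untreated C57BL6/J arrays 1 and 3 and 7.17 in irradiated A/J array 3, and at most 5.05 on the other 15. The same 3 arrays had skeletal muscle list means of 7.32, 7.23 and 7.56, against at most 5.53 elsewhere. The array labelled C3H/HeJ irradiated 3 went against its label in the comparison with A/J. Over 21 probe sets that separate untreated C3H/HeJ from untreated A/J arrays, positions were set with A/J at 0 and C3H/HeJ at 1. This array lay at a median of 0.277, whereas the other irradiated C3H/HeJ arrays lay at 0.992 and 0.969. Over 23 probe sets that separate untreated C3H/HeJ (1) from untreated C57BL6/J arrays (0), it lay at 0.855, against 0.981 and 0.956. The irradiated A/J arrays had actin 5' to 3' signal ratios of 0.413 to 0.551, against 0.677 to 0.766 on the other arrays. Irradiated A/J array 1 also had a GAPDH 5' to 3' ratio of 0.294. That ratio was 0.876 and 1.03 on the other irradiated A/J arrays and 1.06 to 1.3 elsewhere. The same array had the highest trimmed mean signal, 176, against 46.3 to 134 outside its group. Results are therefore also given without the 3 arrays high in squamous and muscle genes, and the part of the array differences in any result was not tested.

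Across the 12412 genes the difference of effects was called for 501 (4.04% of those tested), 229 higher (1.84%) and 272 lower (2.19%). For many of them the effects in A/J and C3H/HeJ were called and the effect in C57BL6/J was not. Among the 272 lower genes, 160 rose in both A/J and C3H/HeJ, and for 137 of these the C57BL6/J effect was not called. Among the 229 higher genes, 139 fell in both other strains, with no C57BL6/J call for 124. The genes were chosen by a difference made of these same effects, so such patterns are in part set by the choice. The share of all genes with these patterns was not counted. The C57BL6/J effect itself was called higher for 19 of the higher genes and lower for 41 of the lower ones. Across all genes the effect of irradiation was called for 664 genes (5.35%) in C57BL6/J, 2986 (24.1%) in A/J and 2915 (23.5%) in C3H/HeJ. It was called higher for 2.99%, 15.1% and 12.8% of all genes in that order of strains, and lower for 2.36%, 8.95% and 10.6%. The C57BL6/J count was 219 without C57BL6/J irradiated 1, 416 without irradiated 2, 221 without untreated 1, 290 without untreated 3 and 32 without the 3 arrays named above. Without scaling between arrays the C57BL6/J calls were 118 higher and 107 lower, those in A/J 2288 and 145, and those in C3H/HeJ 3171 and 73. With median centring they were 221 and 121, 4162 and 538, and 3012 and 462. The median size of a called difference was 0.87 among the higher genes and 0.94 among the lower ones, on the log2 scale.

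Set against each strain singly, the C57BL6/J effect differed from the A/J effect for 677 genes (5.45%) and from the C3H/HeJ effect for 199 (1.6%). For 85 genes (0.685%) both of these calls and the main one had the same sign, 27 higher (0.218%) and 58 lower (0.467%). Between the C3H/HeJ and A/J effects themselves, 132 genes (1.06%) differed, a count that ran from 33 without C3H/HeJ irradiated 2 to 199 without C3H/HeJ irradiated 3. It was 38, 61 and 68 without A/J untreated 2, 1 and 3, 55 without C3H/HeJ irradiated 1, 52 and 73 without C3H/HeJ untreated 1 and 2, 65 without the 3 arrays and 626 with array weights. A difference of effects can come from unequal irradiated levels or from unequal untreated levels. Irradiated C57BL6/J lungs were higher than the mean of the other irradiated strains for 8.59% of all genes and lower for 12.3% (20.8% in all), and untreated ones were higher for 6.94% and lower for 5.61% (12.6% in all). The untreated count of 1558 was 953 without C57BL6/J untreated 1 and 389 without the 3 arrays, and the irradiated count of 2587 was 1625 without C57BL6/J irradiated 3. Of the 229 higher genes, irradiated C57BL6/J lungs differed from the mean of the other irradiated strains alone for 137, untreated lungs alone for 58, and both for 27. Of the 272 lower genes, these counts were 154, 81 and 30.

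The fit without the 3 arrays named above has 1 untreated C57BL6/J array, assumed to vary like the other groups, so a call lost there does not show that these arrays carried it. The differences of Timp1 (−2.99, against −2.59 with all arrays), Tpsb2 (−2.55, against −2.60) and Col18a1 (−1.56, against −1.50) had about the same size there without a call. In that fit 33 genes were called, 12 higher and 21 lower, and 29 of the 501 (0.234% of all genes) were among the 33, 10 higher (0.0806%) and 19 lower (0.153%). Without the array labelled C3H/HeJ irradiated 3 alone, 371 genes were called, 353 of them (2.84% of all genes) from the 501. In each of the 18 fits that left out 1 array, 144 genes (1.16%) kept their call, 66 higher (0.532%) and 78 lower (0.628%). The scaling of arrays weighed on the higher calls in particular: without scaling, the median difference over all genes was −0.54 in place of −0.07, and only 9 of the higher calls (0.0725% of all genes) but 143 of the lower ones (1.15%) held under quantile scaling, median centring and no scaling (152 genes, 1.22%). Called with the same sign in all 3 scalings and without the 3 arrays were 22 genes (0.177%), 4 higher (0.0322%) and 18 lower (0.145%), a count that includes the fit with 1 untreated C57BL6/J array. Arntl, Gprin3, Inpp4b and Gm33248 were higher. Dbp, Il6, Ankrd63, Tspan4, Per2, Cma1, Chrna7, Per1, Hamp, Hal, Selp, Emilin2, Tef, Mt2, Mt1, Rgcc, Sorbs2 and Adamts1 were lower. These 22 were also called without the array labelled C3H/HeJ irradiated 3.

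**Figure D1:**
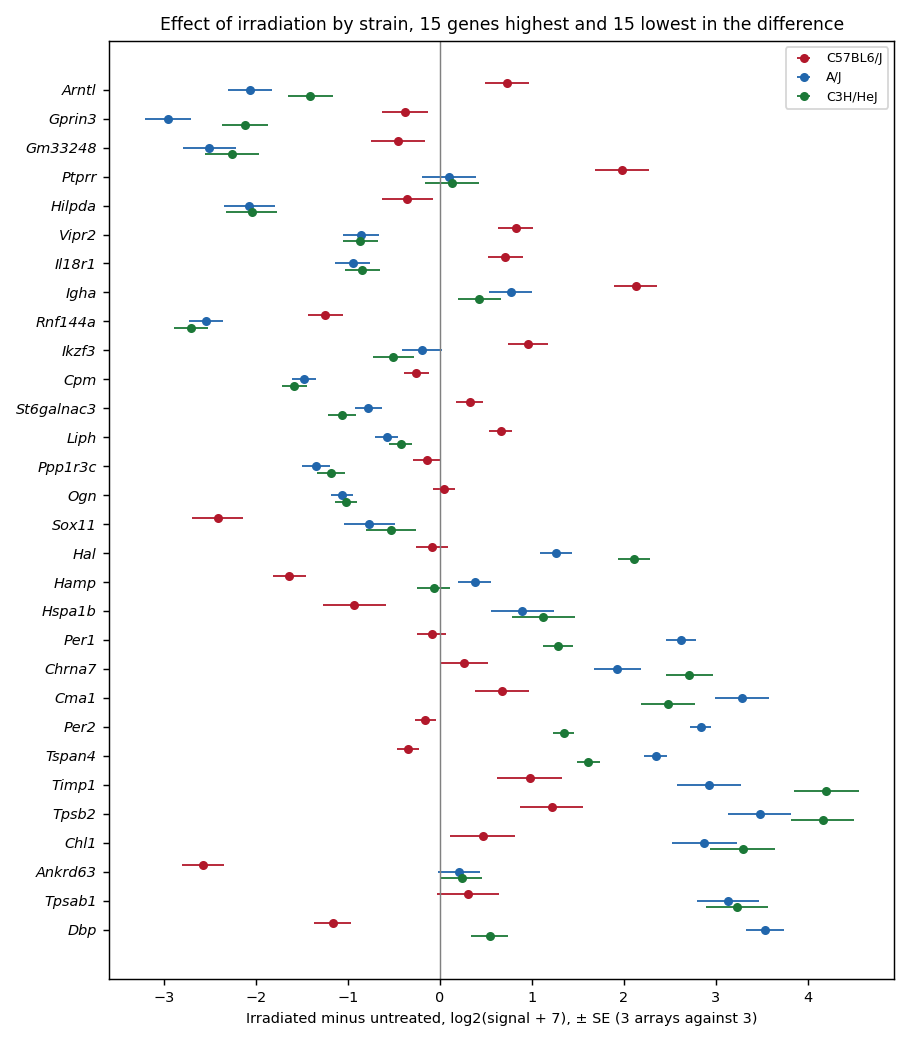
Effect of irradiation (log2, irradiated minus untreated, ± SE from the limma fit) in C57BL6/J, A/J and C3H/HeJ for the 30 genes with the largest positive or negative difference of effects among genes called in the main and both single-strain comparisons. For many of the lower genes the C57BL6/J point lies near 0 while the A/J and C3H/HeJ points lie to the right, as for Tspan4 at −0.35, 2.35 and 1.61. Exceptions include Ankrd63, Hamp, Sox11 and Dbp, with the C57BL6/J point well to the left of 0. For Dbp the C3H/HeJ effect was also not called. In Tpsb2 and Timp1 the C57BL6/J point lies to the right of 0.

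The genes of the circadian clock held the largest share of calls among the lists. The clock is a feedback loop found in nearly every cell. ARNTL (BMAL1) with CLOCK or NPAS2 switches on the Per and Cry genes and output factors such as Dbp, Tef and Hlf. The PER and CRY proteins then repress the activity of ARNTL and its partner. Arntl and the Dbp or Per genes peak at opposite times of day. Of 23 clock genes measured, 11 were lower and 2 higher in the difference of effects, against 2.19% and 1.84% of all genes. The median over the list was −0.63, against −0.07 over all genes, and −0.74 without the 3 arrays. The hour at which the mice were killed is not given in the sources used here.

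Dbp, a clock output factor, stood at 8.11, 8.92 and 8.76 in irradiated C57BL6/J lungs, against 9.76, 9.62 and 9.90 in untreated ones. In A/J it was 8.83, 9.04 and 9.11 after irradiation, against 5.68, 5.45 and 5.25 in untreated lungs. In C3H/HeJ it was 8.25, 8.42 and 8.55 after irradiation, against 7.88, 8.23 and 7.50 in untreated lungs. The irradiated lungs of the 3 strains lay between 8.11 and 9.11, and the untreated lungs did not overlap between strains. Dbp fell by 1.17 in C57BL6/J, its effect was 3.54 in A/J and 0.54, not called, in C3H/HeJ, and the difference of effects was −3.20 ± 0.25 (SE; adjusted p = 4.28e-06).

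Per2, a repressor of the loop, had 7.36, 7.38 and 7.55 in irradiated C57BL6/J lungs, against 7.46, 7.53 and 7.78 in untreated ones. A/J lungs had 7.95, 7.69 and 7.66 after irradiation, against 4.95, 5.05 and 4.79 untreated. C3H/HeJ lungs had 7.01, 6.92 and 7.02 after irradiation, against 5.62, 5.53 and 5.75 untreated. The 3 groups of irradiated lungs and the untreated C57BL6/J lungs lay between 6.92 and 7.95, and the untreated A/J and C3H/HeJ lungs lay below them all. This gave a difference of effects of −2.25 ± 0.14 (adjusted p = 4.47e-07). Per1, another repressor, had 7.29, 7.48 and 7.74 in irradiated C57BL6/J lungs against 7.49, 7.68 and 7.62 in untreated ones, and a difference of effects of −2.04 ± 0.19 (adjusted p = 4.31e-05). In A/J and C3H/HeJ the untreated Per1 values, from 5.6 to 6.32, did not overlap with the irradiated ones, from 7.16 to 8.60.

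Arntl, the activator of the loop, ran the other way. It stood at 5.07, 5.55 and 5.26 in irradiated C57BL6/J lungs, against 4.44, 5.08 and 4.16 in untreated ones. In A/J lungs the values were 5.46, 4.86 and 4.58 after irradiation, against 6.93, 7.03 and 7.12 untreated. In C3H/HeJ it was 4.61, 4.80 and 5.14 after irradiation, against 6.50, 6.29 and 5.99 untreated. The untreated A/J and C3H/HeJ lungs were the highest, with no overlap with any other group, and the difference of effects was 2.47 ± 0.30 (adjusted p = 0.000533). A second probe set of Arntl gave 0.50 and was not called. Npas2, which can replace CLOCK as partner of ARNTL, also had a higher difference of effects, 2.18 ± 0.40 (adjusted p = 0.00802), and 1.63 without the 3 arrays, where it was not called (adjusted p = 0.14).

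The other clock genes called were lower. Tef, an output factor, had −1.58 ± 0.18 (adjusted p = 0.000466), but its probe set with the highest spread gave 0.01. Ciart and Nr1d2, repressors of the loop, had −1.52 and −1.49. Per3 had −1.14, Usp2, a deubiquitinase under clock control, −1.02, the cell cycle kinase gene Wee1 −1.02, Bhlhe40 −0.83 and Csnk1e, a kinase of the PER proteins, −0.50. Over the list, untreated C57BL6/J lungs were called higher than the mean of the other untreated strains for 15 genes and lower for 4. Between irradiated lungs the same comparison called 2 genes higher and 1 lower. Over all genes the untreated comparison called 6.94% higher and 5.61% lower, and the irradiated one 8.59% higher and 12.3% lower. The effect of irradiation was called for 4 of the 23 genes in C57BL6/J, 18 in A/J and 11 in C3H/HeJ. The shares of all genes called were 5.35%, 24.1% and 23.5% in that order. Without the 3 arrays Arntl, Dbp, Per1, Per2 and Tef kept their calls.

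**Figure D2:**
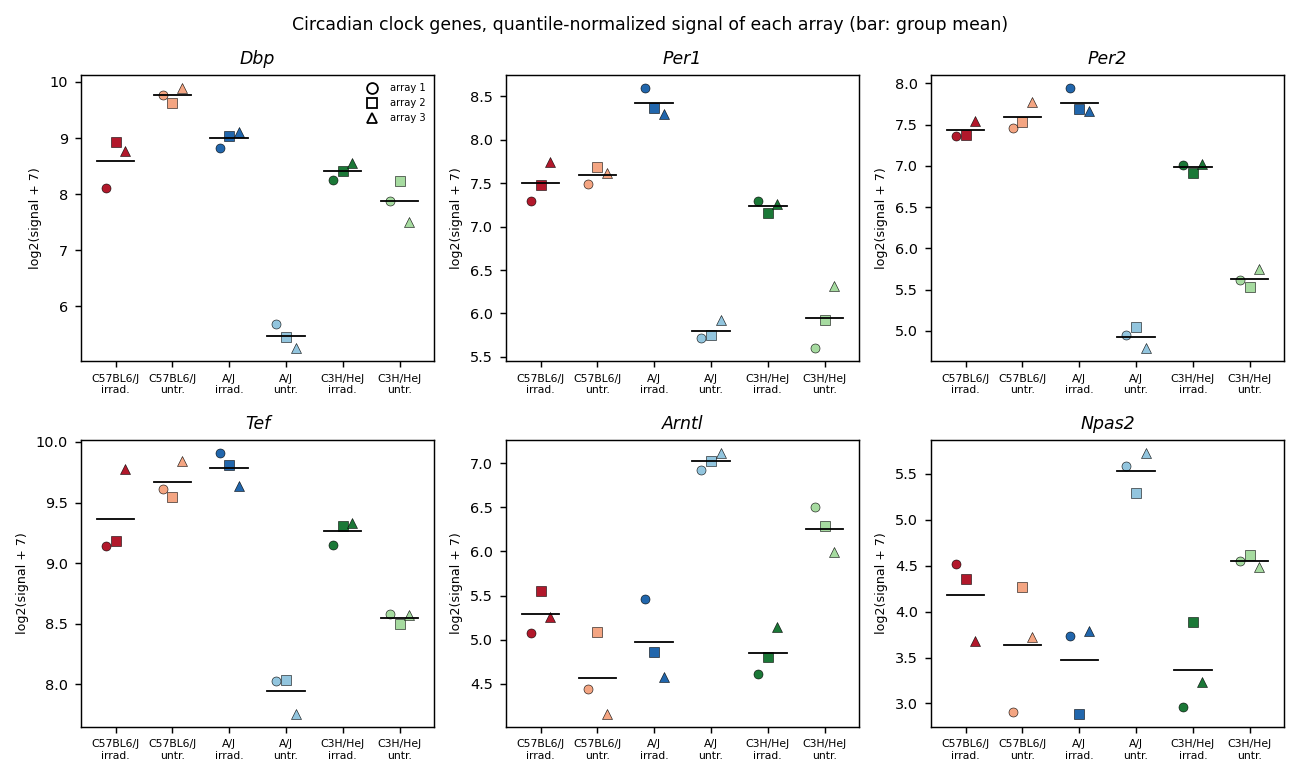
Quantile-normalised log2 levels of 6 clock genes on each of the 18 arrays, by strain and treatment, with group means as bars. For Dbp, Per1, Per2 and Tef the untreated A/J and C3H/HeJ lungs lie below the untreated C57BL6/J lungs, and for Arntl and Npas2 above them.

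The promoters of 4 of the called clock genes are shown because they carry the motifs through which the loop works. Each is the 250 bases before the RefSeq start on GRCm38.p6, read 5′ to 3′ on the gene's strand, with the motif in capitals: the E-box CACGTG bound by ARNTL with CLOCK or NPAS2, and the D-box TTANGTAA bound by DBP, TEF and HLF. Ciart lies at chr3:95882229-95882478 on the minus strand and Per1 at chr11:69098699-69098948 on the plus strand. Tef lies at chr15:81802423-81802672 on the plus strand and Per3 at chr4:151044666-151044915 on the minus strand.
Ciart: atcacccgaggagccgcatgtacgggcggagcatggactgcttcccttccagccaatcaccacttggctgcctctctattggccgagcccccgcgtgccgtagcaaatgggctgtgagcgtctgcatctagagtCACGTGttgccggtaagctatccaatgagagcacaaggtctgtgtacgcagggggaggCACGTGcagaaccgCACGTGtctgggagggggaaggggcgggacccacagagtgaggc
Per1: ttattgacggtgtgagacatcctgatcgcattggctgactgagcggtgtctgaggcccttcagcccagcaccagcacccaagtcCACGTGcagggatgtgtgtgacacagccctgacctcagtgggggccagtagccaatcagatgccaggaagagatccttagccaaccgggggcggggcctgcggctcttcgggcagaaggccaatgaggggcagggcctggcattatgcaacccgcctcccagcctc
Tef: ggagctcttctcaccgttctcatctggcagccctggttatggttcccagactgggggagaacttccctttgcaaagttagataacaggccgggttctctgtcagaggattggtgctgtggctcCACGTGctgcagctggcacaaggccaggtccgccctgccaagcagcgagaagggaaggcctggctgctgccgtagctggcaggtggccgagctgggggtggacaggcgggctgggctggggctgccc
Per3: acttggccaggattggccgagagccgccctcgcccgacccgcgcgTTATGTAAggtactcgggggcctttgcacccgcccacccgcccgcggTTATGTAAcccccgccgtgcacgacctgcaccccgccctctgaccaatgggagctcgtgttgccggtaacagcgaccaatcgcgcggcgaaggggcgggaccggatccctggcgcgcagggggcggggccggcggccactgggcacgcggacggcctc
The Ciart window holds 3 E-boxes, the Per1 and Tef windows 1 each, and the Per3 window 2 D-boxes. RefSeq promoters were matched for 19 of the clock genes, 10 of them called. Both strands were searched. An E-box was found in 5 of the 19 genes and a D-box in 2, and the ROR element TAGGTCA in 1, whereas 6.02%, 2.06% and 2.23% of 32851 promoters of this length hold them. The 19 genes have 27 promoters and a gene was counted if any of them held the motif, so these counts are per gene and the shares per promoter, and the 2 are not compared. These matches describe the letters of the windows and are not evidence of binding in these lungs.

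Of 13 mast cell and basophil genes measured, the effect of irradiation was called higher for 1 in C57BL6/J, 8 in A/J and 9 in C3H/HeJ. It was called lower for 1, 1 and 2 in the same order. The shares of all genes called higher were 2.99%, 15.1% and 12.8%, and called lower 2.36%, 8.95% and 10.6%. Mast cells are tissue immune cells that store tryptases, chymases and carboxypeptidase A3 in granules and carry the high-affinity IgE receptor. Of the 13 genes, 6 were lower in the difference of effects (46.2%, against 2.19% of all genes) and none was higher by limma. At an unadjusted p below 0.05, 9 were lower and 0 higher. The list median was −1.76, against −0.07 over all genes, and −2.0 without the 3 arrays. Mean levels over the list were 4.88 to 5.46 in irradiated C57BL6/J lungs, against 4.68 to 4.90 in untreated ones. They were 6.76 to 7.38 in irradiated A/J lungs, against 5.03 to 5.54 in untreated ones, and 6.22 to 6.99 in irradiated C3H/HeJ lungs, against 4.79 to 4.92 in untreated ones. Irradiated A/J and C3H/HeJ lungs thus lay above all C57BL6/J lungs. Between untreated C57BL6/J and the mean of the other untreated strains limma called none of the 13, against 12.6% of all genes. At an unadjusted p below 0.05, 0 were higher and 2 lower.

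Tpsb2, a tryptase of mast cell granules, had 5.42, 4.67 and 3.96 in irradiated C57BL6/J lungs, against 4.05, 3.38 and 2.98 in untreated ones. The A/J values were 7.85, 8.18 and 7.77 after irradiation, against 4.36, 3.98 and 5.02 untreated. C3H/HeJ lungs had 7.14, 7.24 and 7.66 after irradiation, against 2.95, 3.06 and 3.55 untreated. The irradiated A/J and C3H/HeJ lungs were higher than all others, and the C57BL6/J groups overlapped. The difference of effects was −2.60 ± 0.42 (adjusted p = 0.00384), and −2.55 without the 3 arrays (adjusted p = 0.0742). The closely related tryptase Tpsab1, whose signal may overlap with that of Tpsb2, had −2.87 ± 0.41 (adjusted p = 0.00173).

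Cma1, a mast cell chymase, had 5.66, 5.80 and 5.07 in irradiated C57BL6/J lungs, against 4.84, 5.26 and 4.42 in untreated ones. Lungs of A/J mice had 9.0, 8.60 and 8.27 after irradiation, against 5.11, 5.11 and 5.77 untreated, and C3H/HeJ lungs 7.08, 7.37 and 8.08, against 4.78, 5.32 and 4.98. This gave a difference of effects of −2.21 ± 0.36 (adjusted p = 0.00388), and the call held without the 3 arrays at −2.72 (adjusted p = 0.0247). Mcpt4, another chymase, had −2.24 ± 0.58, called in 4 of the 18 fits without 1 array. Ms4a2, the beta chain of the IgE receptor, had −2.11 ± 0.51, called in 13 of them, and Mrgprb1, a receptor of mast cells, −1.54 ± 0.39, called in 7. Cpa3, mast cell carboxypeptidase, rose in C57BL6/J as well, by 2.09 (adjusted p = 0.0188), and its difference of effects, −1.75 ± 0.57, was not called (adjusted p = 0.102), nor at −2.86 without the 3 arrays (adjusted p = 0.103). Kit, the stem cell factor receptor of mast cells and of some lung endothelium, fell by 2.16 in C57BL6/J, by 1.55 in A/J and by 2.06 in C3H/HeJ, with a difference of effects of −0.35 ± 0.31 (adjusted p = 0.587).

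**Figure D3:**
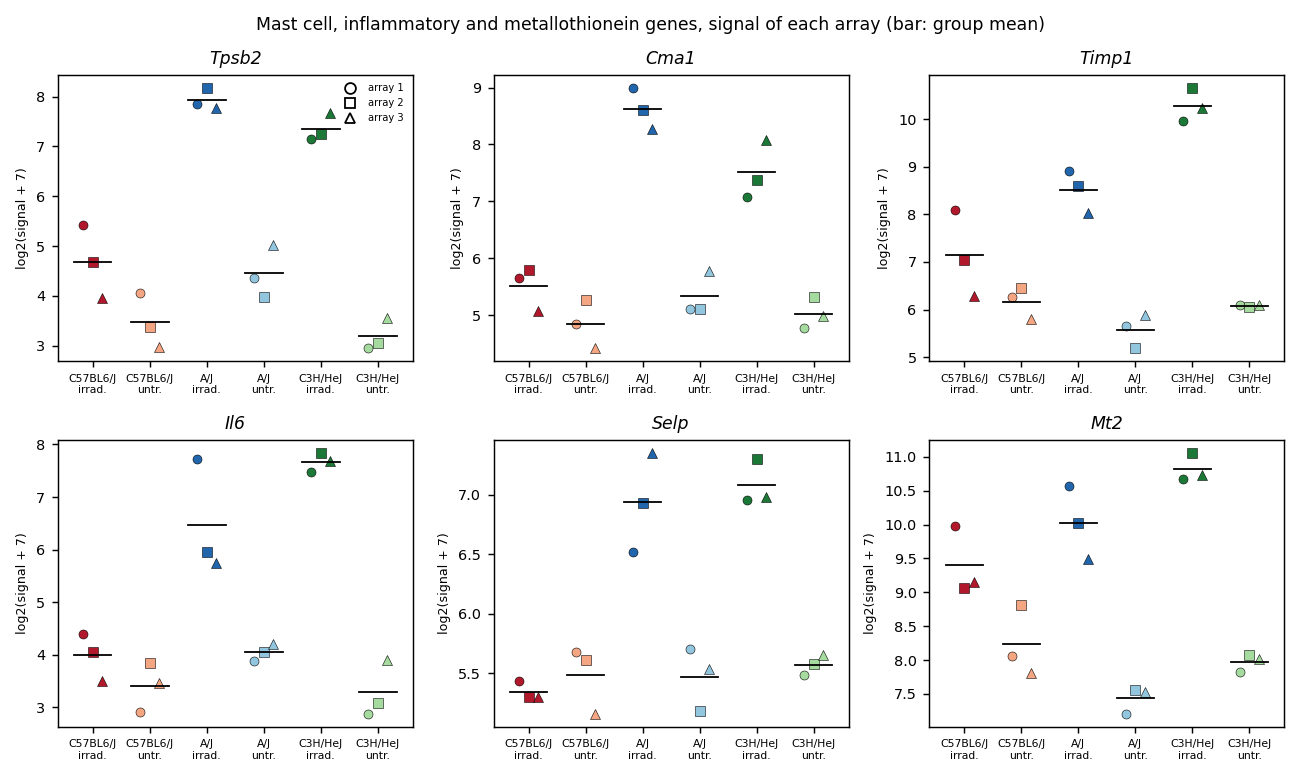
Quantile-normalised log2 levels of Tpsb2, Cma1, Timp1, Il6, Selp and Mt2 on each of the 18 arrays, by strain and treatment, with group means as bars. For Tpsb2, Cma1, Il6 and Selp the irradiated A/J and C3H/HeJ lungs lie above every C57BL6/J lung; for Timp1 and Mt2 the irradiated C57BL6/J lungs overlap with the irradiated A/J lungs.

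Several genes of inflammation had a lower effect in C57BL6/J lungs. Il6, the cytokine that drives the acute-phase response, had 4.40, 4.06 and 3.50 in irradiated C57BL6/J lungs, against 2.91, 3.84 and 3.47 in untreated ones. A/J lungs had 7.72, 5.95 and 5.75 after irradiation, against 3.88, 4.05 and 4.20 untreated. C3H/HeJ lungs had 7.48, 7.84 and 7.68 after irradiation, against 2.88, 3.08 and 3.89 untreated. All irradiated A/J and C3H/HeJ lungs were above all other lungs, and the difference of effects was −2.83 ± 0.51 (adjusted p = 0.00705).

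Of 36 chemokine and cytokine genes, 5 were lower (13.9%, against 2.19% of all genes) and 1 higher (2.78%, against 1.84%). The list median was −0.42 (−0.54 without the 3 arrays). The effect of irradiation was called higher for 7 in C57BL6/J, 10 in A/J and 23 in C3H/HeJ. The shares of all genes called higher were 2.99%, 15.1% and 12.8%. Set against A/J alone, 1 gene was lower and 1 higher (median −0.157). Against C3H/HeJ alone, 6 were lower (median −0.725), so the gap to A/J was the smaller one. Besides Il6 the lower genes were the eosinophil chemokines Ccl24 (−1.94 ± 0.47) and Ccl11 (−1.25 ± 0.30), the monocyte chemokine Ccl7 (−1.46 ± 0.40) and Cxcl14 (−1.18 ± 0.25). Ccl24, Ccl11, Ccl7 and Cxcl14 were called in 10, 12, 3 and 17 of the 18 fits without 1 array. The neutrophil chemokine Cxcl5 was higher at 1.14 ± 0.30, called in 4 of the 18 fits; it rose by 1.03 in C57BL6/J and by 1.75 in C3H/HeJ and fell by 1.95 in A/J. Ccl2, another monocyte chemokine, had −1.63 ± 0.54 (adjusted p = 0.107).

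Selp, the endothelial P-selectin that catches leukocytes on the vessel wall, had 5.43, 5.30 and 5.30 in irradiated C57BL6/J lungs, against 5.68, 5.61 and 5.16 in untreated ones. The A/J values were 6.52, 6.93 and 7.35 after irradiation, against 5.70, 5.18 and 5.53 untreated, and C3H/HeJ lungs 6.95, 7.30 and 6.98, against 5.48, 5.58 and 5.65. No C57BL6/J lung reached the irradiated lungs of the other strains. The difference of effects was −1.63 ± 0.23 (adjusted p = 0.00177), and −1.65 without the 3 arrays (adjusted p = 0.0189).

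Over 24 complement and acute-phase genes the effect was called higher for 15 in C57BL6/J, 20 in A/J and 21 in C3H/HeJ. The shares of all genes called higher were 2.99%, 15.1% and 12.8% in that order. Limma called the effect lower for none of the 24 (at an unadjusted p below 0.05, 0 were lower in C57BL6/J). In the difference of effects 3 were lower (12.5%, against 2.19% of all genes), with a list median of −0.31. Serpina3n, a protease inhibitor, rose by 1.27 in C57BL6/J, 2.79 in A/J and 3.07 in C3H/HeJ, a difference of −1.66 ± 0.31 (adjusted p = 0.00804). Saa3, serum amyloid A, rose by 2.01, 2.36 and 4.71 in the same order of strains, and Lcn2, an iron-binding protein of neutrophils and epithelium, by 1.49, 2.34 and 2.82. Their differences of effects, −1.52 ± 0.41 and −1.09 ± 0.29, were called in only 4 and 2 of the 18 fits without 1 array. The fibrinogen chain Fgg rose by 1.94 in C57BL6/J, 1.69 in A/J and 1.73 in C3H/HeJ, with a difference of 0.23 ± 0.44 (adjusted p = 0.822), which turned to −1.02 ± 0.27 without the 3 arrays (adjusted p = 0.137).

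The stress-responsive metallothioneins, which bind zinc and copper, followed the same order. Mt2 had 9.98, 9.07 and 9.15 in irradiated C57BL6/J lungs, against 8.06, 8.82 and 7.81 in untreated ones. Lungs of A/J mice had 10.57, 10.02 and 9.49 after irradiation, against 7.21, 7.56 and 7.53 untreated, and C3H/HeJ lungs 10.68, 11.06 and 10.74, against 7.83, 8.08 and 8.01. Irradiated and untreated lungs did not overlap within any strain, and the gap was smallest in C57BL6/J. This gave a difference of effects of −1.55 ± 0.35 (adjusted p = 0.0251). The call was lost without C57BL6/J irradiated 2 or 3 or untreated 1 or 2, and held without the 3 arrays at −2.28 (adjusted p = 0.0236). Mt1 had −1.38 ± 0.24 (adjusted p = 0.00534), and −1.86 without the 3 arrays.

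Both metallothioneins also belong to a list of 24 glucocorticoid-responsive genes. Limma called 7 differences of effects lower (29.2%, against 2.19% of all genes) and 0 higher (10 and 0 at an unadjusted p below 0.05). The other 5 were Per1, Cebpd, a transcription factor of the acute-phase response (−1.12 ± 0.24), Lcn2, Fkbp5, a chaperone of the glucocorticoid receptor (−1.0 ± 0.27), and Tsc22d3, GILZ (−0.98). The list median was −0.51, and −0.60 without the 3 arrays. The effect of irradiation was called higher for 5 of the 24 genes in C57BL6/J and for 16 in each of the other strains. The shares of all genes called higher were 2.99% in C57BL6/J, 15.1% in A/J and 12.8% in C3H/HeJ. Untreated C57BL6/J lungs were higher than the mean of the other untreated strains for 13 genes and lower for 2. The shares of all genes were 6.94% and 5.61%. Fkbp5 had 8.60, 7.92 and 8.59 in irradiated C57BL6/J lungs, against 6.95, 7.62 and 6.99 in untreated ones, while the untreated A/J and C3H/HeJ lungs lay between 5.33 and 6.29. Its call held in 2 of the 18 fits without 1 array. Cebpd lost its call without C57BL6/J untreated 1.

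Genes of the extracellular matrix, which scar tissue is made of, were called higher for most members measured in A/J and C3H/HeJ, and for 3 in C57BL6/J. By RNA level at sacrifice, C57BL6/J lungs did not show a larger matrix response, although the strain is the one known for fibrosis. Of 34 collagen and matrix genes the effect was called higher for 3 in C57BL6/J, 23 in A/J and 19 in C3H/HeJ. The shares of all genes called higher were 2.99%, 15.1% and 12.8% in that order. At an unadjusted limma p below 0.05, 12 of the 34 were higher and 1 lower in C57BL6/J. Mean levels over the list were 7.69 to 7.96 in irradiated C57BL6/J lungs, against 7.59 to 7.64 in untreated ones. They were 8.31 to 8.47 in irradiated A/J lungs, against 7.53 to 7.59 in untreated ones, and 8.53 to 8.74 in irradiated C3H/HeJ lungs, against 7.88 to 8.00 in untreated ones. Irradiated and untreated lungs did not overlap in any strain. In the difference of effects 6 genes were lower (17.6%, against 2.19% of all genes) and 0 higher by limma. At an unadjusted p below 0.05, 18 were lower and 1 higher. The list median was −0.53, against −0.07 over all genes. With the 3 arrays left out, the median was −0.49 and limma called none (0 higher and 12 lower at an unadjusted p below 0.05).

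Col1a1, a chain of type I collagen, had 8.62, 8.11 and 7.35 in irradiated C57BL6/J lungs, against 7.45, 7.4 and 7.72 in untreated ones. A/J lungs had 9.40, 9.36 and 9.24 after irradiation, against 7.35, 7.08 and 6.89 untreated. C3H/HeJ lungs had 9.31, 9.51 and 9.21 after irradiation, against 7.57, 7.75 and 7.43 untreated. The C57BL6/J groups overlapped, and the lungs of the other irradiated strains were above all of them. The difference of effects was −1.49 ± 0.28 (adjusted p = 0.00847), and −1.39 without the 3 arrays (adjusted p = 0.159).

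The other lower members of the matrix list were the fibril-associated collagen Col14a1 (−0.78 ± 0.12), called in all 18 fits without 1 array, Mfap5 of the elastic microfibrils (−1.25 ± 0.29), in 15, the basement membrane zone collagen Col15a1 (−1.44 ± 0.36), in 9, the matricellular Thbs1 (−1.67 ± 0.44), in 4, and the fibrillar collagen Col5a2 (−1.24 ± 0.31), in 3. Other central matrix genes leaned the same way without a call. Col1a2 had −0.64 ± 0.20 (adjusted p = 0.088), Col3a1 −0.56 ± 0.22, fibronectin Fn1 −0.50 ± 0.18 and tenascin Tnc −1.42 ± 0.44 (adjusted p = 0.0873). Col1a2, Col3a1, Fn1 and Tnc were each called when C57BL6/J irradiated 1 was left out. That array had the highest value of its group for each of these 4 genes, and Tnc was 7.0, 5.74 and 5.26 in irradiated C57BL6/J lungs, against 4.38, 4.83 and 5.10 in untreated ones. The collagen crosslinking enzyme Lox rose by 1.62 in C57BL6/J, 1.91 in A/J and 1.51 in C3H/HeJ, a difference of −0.09 ± 0.36 (adjusted p = 0.918), and −0.71 ± 0.43 without the 3 arrays (adjusted p = 0.536). Of 13 crosslinking and processing genes only the lysyl hydroxylase Plod1 was called (7.69%, against 4.04% of all genes), at −0.71 ± 0.15.

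**Figure D4:**
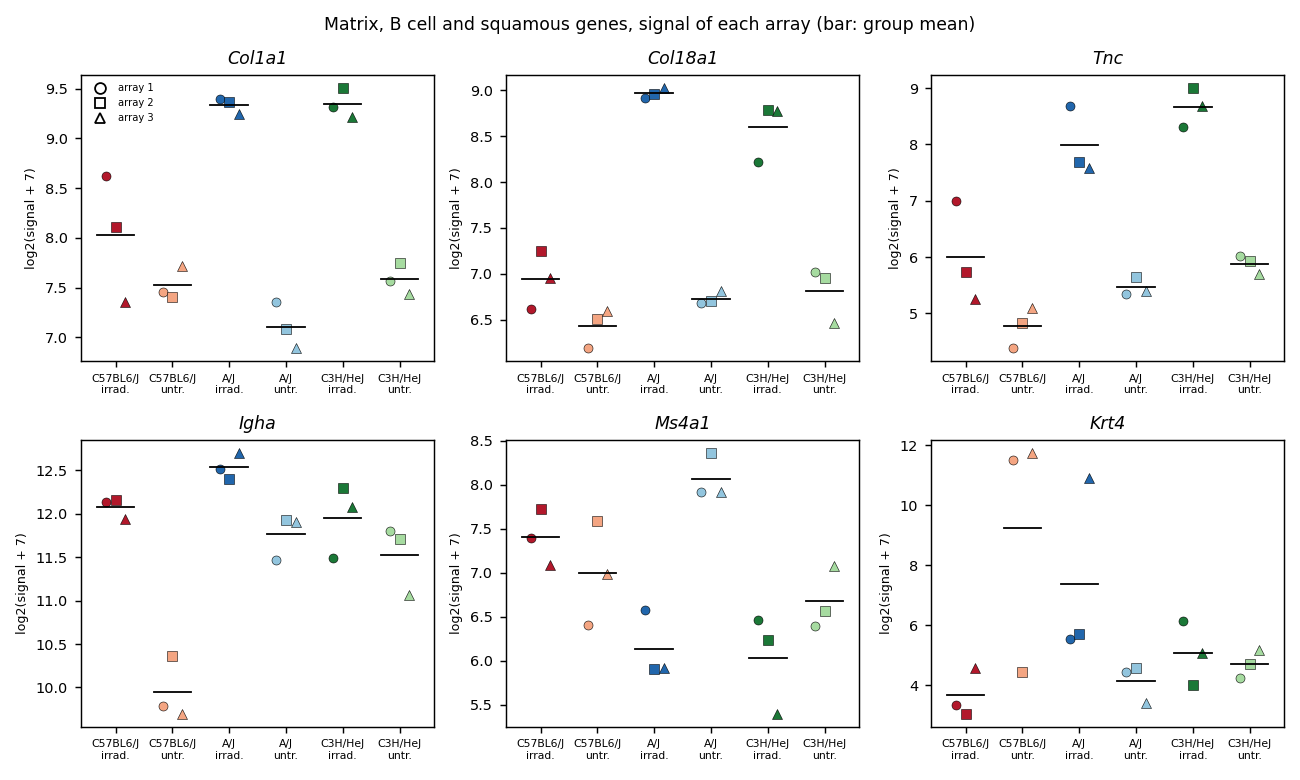
Quantile-normalised log2 levels of Col1a1, Col18a1, Tnc, Igha, Ms4a1 and Krt4 on each of the 18 arrays, by strain and treatment, with group means as bars. Irradiated A/J and C3H/HeJ lungs lie above all C57BL6/J lungs for Col1a1, Col18a1 and Tnc; Igha is lowest in untreated C57BL6/J lungs; Krt4 is above 10 in untreated C57BL6/J arrays 1 and 3 and irradiated A/J array 3 alone.

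Basement membrane genes gave 4 lower calls (20%, against 2.19% of all genes) and 1 higher call (5%, against 1.84%) among 20. Col18a1, whose end fragment is endostatin, had 6.62, 7.25 and 6.96 in irradiated C57BL6/J lungs, against 6.19, 6.51 and 6.59 in untreated ones. In A/J it was 8.92, 8.96 and 9.03 after irradiation, against 6.68, 6.70 and 6.81 untreated, and in C3H/HeJ 8.22, 8.79 and 8.78, against 7.02, 6.95 and 6.46. Irradiated and untreated lungs did not overlap in any strain, and irradiated C57BL6/J lungs stayed below those of the other strains. This gave a difference of effects of −1.50 ± 0.23 (adjusted p = 0.00274). The laminin chains Lama4 (−0.86 ± 0.16) and Lamc1 (−0.65 ± 0.17) and the type IV collagen chain Col4a2 (−0.64 ± 0.16) were also lower, and Col4a4, a chain of the glomerular and alveolar type of collagen IV, was higher at 0.77 ± 0.20. Lamc1, Col4a2 and Col4a4 were called in 4, 7 and 4 of the 18 fits without 1 array, and other probe sets of Lama4 and Lamc1 gave 0.69 and 0.52, of the opposite sign.

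Among 26 matrix proteases and inhibitors 6 were lower (23.1%, against 2.19% of all genes) and 0 higher by limma. At an unadjusted p below 0.05, 9 were lower and 1 higher, and the median was −0.35. Timp1, an inhibitor of metalloproteinases, had 8.10, 7.05 and 6.28 in irradiated C57BL6/J lungs, against 6.26, 6.45 and 5.80 in untreated ones. The A/J values were 8.90, 8.59 and 8.03 after irradiation, against 5.66, 5.19 and 5.89 untreated, and C3H/HeJ lungs 9.95, 10.66 and 10.24, against 6.10, 6.05 and 6.09. The irradiated C57BL6/J lungs spread widely, the lowest inside the untreated range and the highest inside the irradiated A/J range. The difference of effects was −2.59 ± 0.43 (adjusted p = 0.00432), and −2.99 without the 3 arrays (adjusted p = 0.0514). Mmp8, neutrophil collagenase (−1.65 ± 0.26), Mmp3, stromelysin (−1.59 ± 0.28), and Adamts1, a protease of proteoglycans (−0.91 ± 0.13), were lower in all 18 fits without 1 array. Adamts4 (−1.72 ± 0.40) and the plasminogen activator Plat (−0.67 ± 0.14) were so in 14 and 16. The macrophage elastase Mmp12 had −1.08 ± 0.61 (adjusted p = 0.357).

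The TGF-beta pathway is the best known driver of scar formation. Of 27 ligands, receptors, activators and targets, 3 were lower and 1 higher (14.8% called, against 4.04% of all genes), and the median was −0.10, close to the −0.07 of all genes. Tgfb1 itself had 0.22 ± 0.32 (adjusted p = 0.751), and −0.30 without scaling. The receptor Tgfbr2 had −0.44 ± 0.11, called in 4 of the 18 fits without 1 array, with a second probe set at 0.64. The targets Ccn1 (−1.12 ± 0.27) and Tgfbi (−0.82 ± 0.20) were called in 10 and 11 of them. For Tgfbi the C3H/HeJ effect was 1.39 above the A/J effect. The target Ccn2, connective tissue growth factor, was not called by limma (−0.62 ± 0.17, adjusted p = 0.0554). Set against C3H/HeJ alone, 2 genes of the list were lower, and against A/J alone 0 were lower and 1 higher. Itgb6, the epithelial integrin chain that releases TGF-beta from its latent form, was higher at 1.5 ± 0.29 (adjusted p = 0.011). It had 9.09, 8.64 and 8.32 in irradiated C57BL6/J lungs, against 8.15, 8.24 and 7.94 in untreated ones. In A/J lungs the values were 6.39, 7.14 and 7.0 after irradiation, against 8.88, 8.58 and 8.59 untreated, and in C3H/HeJ 8.87, 9.24 and 8.29, against 8.75, 8.93 and 8.76. Only in A/J did the irradiated lungs lie wholly below the untreated ones, and the C3H/HeJ and A/J effects differed by 1.83.

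Smooth muscle and myofibroblast genes gave 5 lower calls among 18 (27.8%, against 2.19% of all genes). The median was −0.57, and −0.43 without the 3 arrays. The median effect of irradiation was −0.221 in C57BL6/J, 0.455 in A/J and −0.113 in C3H/HeJ. Set against A/J alone, 6 genes were lower (median −0.841), and against C3H/HeJ alone 1 was (median −0.375). The gap was thus larger to A/J than to C3H/HeJ. Des, the muscle filament desmin (−1.37 ± 0.25, adjusted p = 0.00705), and Tpm2, a tropomyosin (−1.20 ± 0.23), were called in all 18 fits without 1 array. Actg2 (−1.30 ± 0.28), Tagln (−0.96 ± 0.22) and Acta2, smooth muscle actin (−0.67 ± 0.18), were called in 15, 14 and 4. Acta2 had 10.03, 10.01 and 10.44 in irradiated C57BL6/J lungs, against 10.78, 10.59 and 10.68 in untreated ones, a fall of 0.52 (adjusted p = 0.048). Without the 3 arrays, which leaves 1 untreated C57BL6/J array, the differences were −1.33 for Des, −0.86 for Tpm2, −0.97 for Actg2, −0.94 for Tagln and −0.61 for Acta2, with adjusted p-values between 0.139 and 0.32.

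The gene with the largest difference of effects was a squamous keratin and rested on the arrays named above. Krt4 had 3.36, 3.06 and 4.59 in irradiated C57BL6/J lungs, against 11.52, 4.43 and 11.75 in untreated ones. In A/J it was 5.54, 5.72 and 10.91 after irradiation, against 4.43, 4.58 and 3.41 untreated, and in C3H/HeJ it was between 4.01 and 6.13 throughout. This gave a difference of effects of −7.37 ± 1.93 (adjusted p = 0.0435) and −1.68 without the 3 arrays (adjusted p = 0.425). Of 16 squamous genes, 6 were lower (37.5%, against 2.19% of all genes). The list median was −3.05, and −0.92 without the 3 arrays. Over 14 skeletal muscle genes the median was −2.23, and 0.31 without them. The atrial peptide gene Nppa (−3.44 ± 0.78) and the near-identical heat shock genes Hspa1b (−1.94 ± 0.42) and Hspa1a (−1.53 ± 0.36), whose signals may mix, were likewise not called without the 3 arrays, at −2.10, −1.08 and −1.04.

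B and plasma cell genes had the opposite sign. Of 19 measured, 5 were higher (26.3%, against 1.84% of all genes) and 0 lower by limma (13 and 0 at an unadjusted p below 0.05). The list median was 1.04. Igha, the heavy chain constant region of IgA, had 12.14, 12.16 and 11.94 in irradiated C57BL6/J lungs, against 9.79, 10.36 and 9.70 in untreated ones. In A/J lungs the values were 12.51, 12.40 and 12.70 after irradiation, against 11.47, 11.93 and 11.90 untreated, and in C3H/HeJ 11.49, 12.29 and 12.08, against 11.80, 11.71 and 11.06. The untreated C57BL6/J lungs were the lowest of all groups, the C3H/HeJ groups overlapped, and the difference of effects was 1.53 ± 0.28 (adjusted p = 0.0081). Ms4a1 (CD20), of B cells, had 7.39, 7.72 and 7.09 in irradiated C57BL6/J lungs, against 6.41, 7.59 and 6.98 in untreated ones. In A/J it was 6.58, 5.91 and 5.92 after irradiation, against 7.92, 8.36 and 7.91 untreated, and in C3H/HeJ 6.46, 6.24 and 5.40, against 6.39, 6.56 and 7.08. Its difference of effects, 1.70 ± 0.38 (adjusted p = 0.0251), thus came with a fall in A/J (by 1.93) and overlapping C57BL6/J groups.

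The B cell receptor chains Cd79a (1.30 ± 0.33) and Cd79b (1.34 ± 0.33) and the IgM heavy chain Ighm (2.03 ± 0.45) were the other higher members. Cd79a, Cd79b, Ighm and Ms4a1 were called in 9, 8, 16 and 15 of the 18 fits without 1 array. Ighm was 10.60, 12.05 and 10.54 in untreated C57BL6/J lungs, the middle value on the array low in squamous genes. The list means were 8.34, 8.54 and 8.16 in irradiated C57BL6/J lungs, against 7.2, 7.73 and 7.18 in untreated ones. With the 3 arrays left out, the list median was 0.47 and limma called none of the 19 genes (5 higher and 0 lower at an unadjusted p below 0.05). Of 28 T and NK cell genes none was called by limma (7 higher and 1 lower at an unadjusted p below 0.05), and the median of 0.37 was 0.05 without the 3 arrays.

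H2-Ea, an MHC class II chain that C57BL/6 mice are known not to make because of a deletion, differed through A/J. It lay between 3.36 and 4.29 on all C57BL6/J arrays. In A/J lungs the values were 3.62, 4.05 and 4.29 after irradiation, against 7.57, 6.87 and 6.90 untreated, and in C3H/HeJ it was 7.16, 6.75 and 5.94, against 6.75, 7.30 and 7.22. The difference of effects of 1.65 ± 0.37 (adjusted p = 0.0241) came with an A/J fall of 3.13. Limma called 2 of 36 interferon-responsive genes higher (5.56%, against 1.84% of all genes). These were the guanylate-binding protein Gbp6 (1.52 ± 0.32) and the immunoproteasome gene Psmb9 (0.67 ± 0.17), called in 16 and 4 of the 18 fits without 1 array. Both fell in A/J, by 1.39 and 1.09. The list median was 0.21, and 0.04 without the 3 arrays.

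Genes that fell with irradiation in A/J and C3H/HeJ and had no call in C57BL6/J made up 124 of the 229 higher genes. This pattern is in part set by how the genes were chosen. Ogn, osteoglycin, a small matrix proteoglycan, had 10.62, 10.88 and 10.93 in irradiated C57BL6/J lungs, against 10.68, 10.75 and 10.87 in untreated ones. Lungs of A/J mice had 9.91, 9.63 and 9.51 after irradiation, against 10.74, 10.79 and 10.71 untreated, and C3H/HeJ lungs 9.83, 10.04 and 9.75, against 10.99, 10.90 and 10.81. The untreated lungs of the 3 strains and the irradiated C57BL6/J lungs formed 1 band, and the difference of effects was 1.08 ± 0.15 (adjusted p = 0.00121). Without the 3 arrays it was 1.05 (adjusted p = 0.0445), but the call did not hold in all scalings.

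Cd36, a fatty acid receptor of endothelium and macrophages, had 11.27, 11.23 and 11.27 in irradiated C57BL6/J lungs, against 11.45, 11.59 and 11.58 in untreated ones. A/J lungs had 10.54, 10.23 and 10.30 after irradiation, against 11.87, 11.90 and 11.77 untreated, and C3H/HeJ lungs 10.88, 10.94 and 10.57, against 11.87, 11.91 and 11.86. All strains were lower after irradiation, C57BL6/J least and without a call of its own, and the difference of effects was 1.00 ± 0.13 (adjusted p = 0.000952). Gprin3, a G protein-regulated inducer of neurite outgrowth, had 7.07, 7.09 and 6.86 in irradiated C57BL6/J lungs, against 7.56, 7.68 and 6.92 in untreated ones. The A/J values were 5.07, 5.91 and 6.24 after irradiation, against 8.54, 8.75 and 8.78 untreated, and C3H/HeJ lungs 5.87, 5.98 and 5.85, against 7.63, 8.16 and 8.25. Its difference of effects was 2.16 ± 0.31 (adjusted p = 0.00173), and 1.99 without the 3 arrays (adjusted p = 0.0239).

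Of 51 endothelial genes the effect was called lower for 14 in C57BL6/J, 24 in A/J and 28 in C3H/HeJ. It was called higher for 1, 8 and 6 in the same order. The shares of all genes called lower were 2.36%, 8.95% and 10.6%, and called higher 2.99%, 15.1% and 12.8%. In the difference of effects 3 were higher (5.88%, against 1.84% of all genes) and 1 lower (1.96%, against 2.19%). The list median of the difference was 0.12. Calcrl, receptor of adrenomedullin, fell by 0.63 in C57BL6/J, fell by 1.96 in A/J and fell by 1.42 in C3H/HeJ, a difference of 1.05 ± 0.17 (adjusted p = 0.00373). Ptprb, the phosphatase that restrains the angiopoietin receptor, fell by 0.86 in C57BL6/J, fell by 1.33 in A/J and fell by 2.30 in C3H/HeJ, a difference of 0.96 ± 0.19. Tmem100 had 1.35 ± 0.36, called in 2 of the 18 fits without 1 array. Tek, the angiopoietin receptor itself, fell by 1.68 in C57BL6/J, fell by 2.14 in A/J and fell by 2.74 in C3H/HeJ, and its difference was not called (0.76 ± 0.22, adjusted p = 0.0673). Limma called 3 of 21 type 1 alveolar cell genes higher (14.3%, against 1.84% of all genes). These were the caveolin gene Cav2 (0.67 ± 0.13), Akap5 (0.58 ± 0.14) and Sema3e (0.67 ± 0.18), called in 18, 11 and 3 of the fits without 1 array. Of 30 type 2 cell genes Cd36, which the list also holds, was the only one called by limma (3.33%, against 4.04% of all genes).

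Gclc, the rate-limiting enzyme of glutathione synthesis, was one of the 19 higher genes that rose in C57BL6/J. It had 11.10, 11.01 and 11.12 in irradiated C57BL6/J lungs, against 10.35, 10.64 and 10.41 in untreated ones. In A/J it was 9.54, 9.81 and 9.76 after irradiation, against 10.76, 10.59 and 10.71 untreated, and in C3H/HeJ 10.11, 10.15 and 9.75, against 9.90, 10.07 and 9.81. The groups separated upwards in C57BL6/J and downwards in A/J and overlapped in C3H/HeJ, and the difference of effects was 1.06 ± 0.15 (adjusted p = 0.00175). Of 22 antioxidant genes it was the only higher one (4.55%, against 1.84% of all genes), beside the lower Mt1 and Mt2 (9.09%, against 2.19%). Liph, a phospholipase, had 8.63, 8.32 and 8.36 in irradiated C57BL6/J lungs, against 7.79, 7.92 and 7.62 in untreated ones, a rise of 0.66. It fell by 0.58 in A/J and by 0.42 in C3H/HeJ, a difference of 1.16 ± 0.15 (adjusted p = 0.000952). Vipr2, a receptor of vasoactive intestinal peptide, and Il18r1, the interleukin-18 receptor, had opposite calls in the same way, with C57BL6/J rises of 0.82 and 0.71, A/J falls of 0.86 and 0.95 and C3H/HeJ falls of 0.86 and 0.84. Their differences of effects were 1.68 ± 0.23 and 1.61 ± 0.23.

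With the 3 arrays left out, Gclc, Liph, Vipr2 and Il18r1 had 0.90, 1.00, 1.42 and 1.32, with adjusted p of 0.0949, 0.0727, 0.0851 and 0.0986. Ptprr, a tyrosine phosphatase, rose by 1.98 in C57BL6/J and had no call in A/J or C3H/HeJ. It had 7.73, 6.93 and 6.78 in irradiated C57BL6/J lungs, against 4.81, 5.86 and 4.82 in untreated ones, while all A/J and C3H/HeJ lungs lay between 4.40 and 5.34. Its difference of effects, 1.86 ± 0.36, was 1.06 without the 3 arrays, which leaves untreated C57BL6/J array 2, with 5.86, as the only untreated lung of that strain.

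The genes with the lowest differences outside the lists fell into different patterns. Tspan4, a tetraspanin of the cell surface, had 8.78, 8.86 and 8.83 in irradiated C57BL6/J lungs, against 9.35, 9.13 and 9.03 in untreated ones. Lungs of A/J mice had 9.59, 9.33 and 9.11 after irradiation, against 7.14, 6.81 and 7.03 untreated, and C3H/HeJ lungs 9.39, 9.34 and 9.35, against 7.66, 7.75 and 7.82. Irradiated A/J and C3H/HeJ lungs reached the untreated C57BL6/J range, and the difference of effects was −2.33 ± 0.15 (adjusted p = 4.47e-07). Untreated C57BL6/J lungs were 1.80 above the mean of the other untreated strains, while irradiated ones were 0.53 below.

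In Ankrd63, an ankyrin repeat gene, the visible change was in C57BL6/J. It had 4.26, 4.43 and 4.55 in irradiated C57BL6/J lungs, against 7.05, 6.68 and 7.24 in untreated ones. All A/J and C3H/HeJ lungs lay between 3.44 and 4.63, low levels at which a fall may not be visible. The difference of effects was −2.80 ± 0.28 (adjusted p = 6.31e-05). Sox11, a transcription factor of development, fell by 2.42 in C57BL6/J. It had 4.82, 5.77 and 5.72 in irradiated C57BL6/J lungs, against 7.78, 7.73 and 8.03 in untreated ones. In the other strains it lay between 3.06 and 4.73, where a fall may likewise be hard to see. Its difference of effects was −1.77 ± 0.34 (adjusted p = 0.00968), and −1.73 without the 3 arrays (adjusted p = 0.139). Hamp, hepcidin, which limits the release of iron, fell by 1.64 in C57BL6/J, with 5.98, 5.25 and 5.42 in irradiated lungs against 7.29, 7.14 and 7.13 in untreated ones, and had no call in A/J or C3H/HeJ. Its difference of effects was −1.79 ± 0.22 (adjusted p = 0.00054).

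In Hal, histidine ammonia-lyase, C57BL6/J lungs were low throughout, between 2.90 and 3.33, with no overlap with the other strains. Such values lie near the lower end of the scale, so a change of Hal within C57BL6/J may not be visible. The gene rose by 1.26 in A/J and by 2.11 in C3H/HeJ, a difference of effects of −1.78 ± 0.21 (adjusted p = 0.000478). Chrna7, a nicotinic receptor subunit, had 4.84, 4.31 and 4.36 in irradiated C57BL6/J lungs, against 3.82, 4.42 and 4.47 in untreated ones. It rose by 1.93 in A/J and by 2.71 in C3H/HeJ, a difference of −2.05 ± 0.31 (adjusted p = 0.00274). Chl1, a neural adhesion molecule, rose by 2.88 in A/J and by 3.29 in C3H/HeJ and had a difference of −2.62 ± 0.43 (adjusted p = 0.00414), which was not called without the 3 arrays (−2.17, adjusted p = 0.136).

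Other lists gave few or no calls. Among 31 targets of p53, the factor that radiation damage activates, none was called by limma (5 higher and 3 lower at an unadjusted p below 0.05), with a median of 0.07. The effect was called higher for 11 of them in C57BL6/J and for 10 in each of the other strains. Over all genes it was called higher for 2.99% in C57BL6/J, 15.1% in A/J and 12.8% in C3H/HeJ. The cell cycle inhibitor Cdkn1a (p21) had 10.35, 10.29 and 10.18 in irradiated C57BL6/J lungs, against 7.39, 8.46 and 7.26 in untreated ones. It rose by 2.57 in C57BL6/J, 1.77 in A/J and 2.29 in C3H/HeJ, a difference of 0.54 ± 0.34 (adjusted p = 0.415), which turned to −0.33 ± 0.29 without the 3 arrays (adjusted p = 0.689). The p53 targets Ccng1 and Zmat3 had −0.13 ± 0.13 (adjusted p = 0.633) and −0.11 ± 0.16 (adjusted p = 0.751), and 0.071 and 0.14 without the 3 arrays (adjusted p = 0.898 and 0.817).

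Of 31 cell cycle genes 2 were lower (6.45%, against 2.19% of all genes). These were the replication genes Cdc6 (−1.13 ± 0.29) and Mcm3 (−0.72 ± 0.19), called in 3 and 4 of the 18 fits without 1 array. The effect was called higher for 26 of the 31 in C3H/HeJ, 2 in A/J and, by limma, 0 in C57BL6/J (5 at an unadjusted p below 0.05). The shares of all genes called higher were 12.8%, 15.1% and 2.99% in that order. Of 31 macrophage genes only Retnla, a marker of alternative activation, was called (3.23%, against 4.04% of all genes), at −1.14 ± 0.29 and in 6 of the 18 fits. It rose by 1.69 in C57BL6/J, 2.80 in A/J and 2.85 in C3H/HeJ. Fibroblast, club cell, ciliated cell, cholesterol and oxidative phosphorylation lists held 17, 25, 29, 20 and 47 genes and no call by limma. At an unadjusted p below 0.05 they held 3, 3, 1, 2 and 0 higher and 2, 4, 0, 5 and 6 lower genes. A missed call does not show that the strains responded alike.

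**Figure D5:**
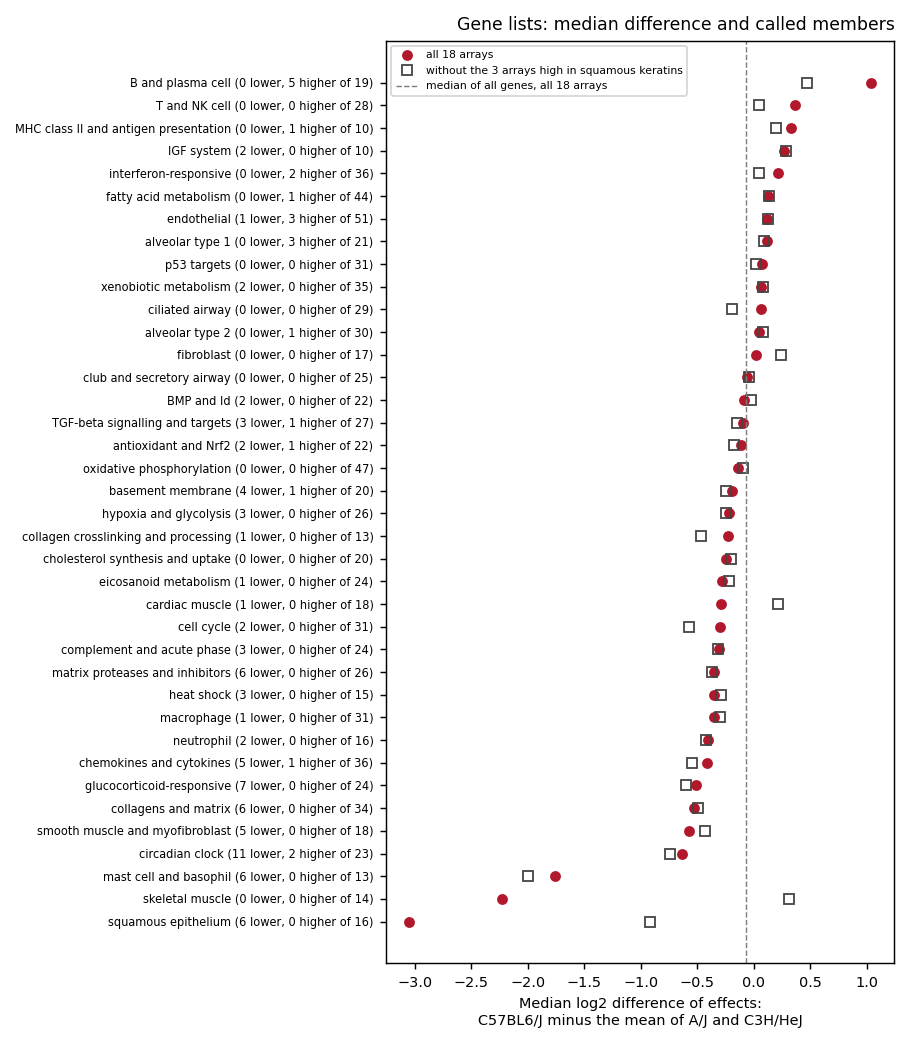
Median difference of effects (log2) over each gene list with at least 10 measured genes. Dots are from all 18 arrays and squares are without the 3 arrays high in squamous and muscle genes. The dashed line is the median over all genes, −0.07. The mast cell median stays at −1.76 and −2.0 and the clock median at −0.63 and −0.74, while the squamous and skeletal muscle medians move to −0.92 and 0.31 and the B and plasma cell median to 0.47.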

How the data were processed

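The values are probe set intensities from 1-colour arrays that the authors made with MAS5 (version not stated), per the submitters' processing notes, and deposited on a linear scale. Depth does not apply to arrays; 3 arrays a group limit the precision. Here log2(intensity + 7) was quantile-normalised, 64 control probe sets were left out, and 25746 of 45101 probe sets above the overall median on at least 3 arrays were kept. Each of 12412 genes is shown by its probe set of highest mean; probe sets naming several genes or none stayed apart. All 18 arrays entered 1 linear model of 6 groups (12 residual degrees of freedom; limma 3.58.1 in R 4.3.3, lmFit and eBayes, Benjamini-Hochberg over all genes). The code was tested on simulated data. Promoters are RefSeq's, on GRCm38.p6.

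The contrast, the members and the lists were chosen with earlier results of these data known, so lists are described by counts and medians and not tested. Named were the 15 highest and 15 lowest differences called in the main and both single-strain comparisons, 10 each way among genes called in 4 settings, up to 6 called genes a list, and some fixed genes; the other clock genes called, Tsc22d3, and the 22 held genes outside these were named after their values were seen. Alternatives changed the scaling, pseudocount, filter, probe set, array weights, moderation, replicate block and arrays left out.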

Additional observations from a re-analysis of the deposited data

Results flagged for a closer look

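The strains' responses differed by the fit's own contrasts, as the report describes: 501 genes between C57BL6/J and the mean of the other strains, 677 between C57BL6/J and A/J, and 199 between C57BL6/J and C3H/HeJ. The A/J and C3H/HeJ effects, whose mean stands for both strains in the main contrast, themselves differed for 132 genes, so for these the mean hides a gap between them. Of the genes named, the C3H/HeJ effect minus the A/J effect was −3 for Dbp, −1.49 for Per2, −1.39 for Nr1d2, −1.34 for Per1, −1.13 for Tef and −0.967 for Ptprb, all higher in A/J. It was 3.7 for Cxcl5, 2.66 for H2-Ea, 2.35 for Saa3, 1.83 for Itgb6, 1.39 for Tgfbi, 1.29 for Emilin2 and 1.06 for Gclc, all higher in C3H/HeJ. For Dbp the C57BL6/J effect was below both, and for Gclc above both. For H2-Ea, Itgb6 and Cxcl5 the C57BL6/J and C3H/HeJ effects lay on the same side of the A/J effect. Outside the gene table, 233 of 3809 kept probe sets without a single named gene (6.12%) were called in the main contrast, 186 higher and 47 lower.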

How the results depend on the processing

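Against 501 genes in the main contrast, 304 were called without scaling (13 higher and 291 lower), 265 without the filter on dim probe sets, 752 with the probe set of highest spread for each gene and 808 with array weights. Without the 3 arrays high in squamous genes there were 33, and 28 without these and C3H/HeJ irradiated 3, an alternative chosen after seeing the data. Leaving out each array gave 168 (without untreated C57BL6/J 1) to 674 (without irradiated A/J 1); also lower by more than 1.5 times were the counts without irradiated C57BL6/J 2 (259) and 3 (279), untreated C57BL6/J 3 (305) and untreated A/J 2 (312). For C57BL6/J against A/J, 677 genes became 252 without scaling, 440 without the filter, 1111 with highest spread, 1177 with weights, 87 without the 3 arrays and 75 without the 4, and 350 to 714 without 1 array. For C57BL6/J against C3H/HeJ, 199 became 323 with a pseudocount of 32, 99 without the filter, 408 with weights, 18 without the 3 arrays and 12 without the 4, and 82 to 371 without 1 array. The higher share of calls was 45.7%, against 4.28% without scaling, 12.7% with median centring (92 higher, 635 lower) and 61.4% with highest spread. With highest spread Lama4 (0.69), Lamc1 (0.52), Tgfbr2 (0.64) and Tef (0.012) changed sign; the cause was not tested. Of 114 called named genes, 71 kept their call without scaling, 104 with median centring, 75 without the filter, 22 without the 3 arrays and 18 without the 4, and 59 to 109 without 1 array; none changed sign in these. The filter removes genes dim everywhere, and weak signals over background limit the dim genes most.

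The labels number the arrays 1 to 3 in every group. Over 45 pairs of same-numbered arrays the correlations of deviations from group means ran from −0.19 to 0.26, 3 of them over 0.1, and 7 of 18 arrays correlated best with their own number, so the numbers were not taken as pairs. With the replicate number as a block 424 genes were called, 194 higher and 230 lower, and 98 of the 114 named genes kept their call.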
